A study of Mus musculus with 4 samples.

Results

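H3K9me3, the trimethyl mark on lysine 9 of histone H3, was examined by native ChIP-seq over a stretch of mouse chromosome 2 that holds the genes Kynu, Arhgap15, Gtdc1 and Zeb2, and over Zeb1, the paralogue of Zeb2 on chromosome 18. The material was wild-type C57BL/6 CD8+ T cells in both groups. Day 0 cells were naive, and day 3 cells came from cultures stimulated through CD3 and CD28 in the presence of IL-2. Each day gave 1 H3K9me3 library, and its islands, the runs of enriched 200 bp windows that the authors' caller joined and listed as significant, were used as deposited. An island belonged to the set described when it touched any of the 5 gene bodies or the 100 kb on either side. By this rule 168 of the 67542 islands on the lists were taken: 48 of 19989 on day 0 and 120 of 47553 on day 3. The chromosome 2 stretch from Kynu to Zeb2, flanks included, held 41 and 110 of them, and the Zeb1 window held 7 and 10.

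The genes were selected on the island coverage of these same 2 libraries, with Zeb1 added for comparison. All coverage values are therefore descriptions. With 1 library per day there was no test between days, and each difference is one between 2 libraries. The sources used here do not state the sex or age of the mice or any pooling of animals. No input library was analysed here, and no background stands beside the values. A larger share of cells with the mark and more of the mark per cell cannot be told apart in bulk chromatin. The read count of an island is not scaled for depth: the day 0 islands held 3402787 reads and the day 3 islands 10423178, and the islands covered 100.5 and 198.6 Mb, or 4.08% and 8.07% of the autosomes. ChIP islands cannot check a cell type by its expression. Among 13 genes of T cell identity, with a median body of 12.0 kb, 2 had an island on each day, and over all autosomal protein-coding genes (median body 17.5 kb) the shares with an island were 24.0% on day 0 and 28.7% on day 3. The identity genes with an island were Ptprc on both days (7.36 and 18.9 kb), Cd5 on day 0 only (4.4 kb) and Cd247 on day 3 only (3.55 kb). The genes of the CD8 co-receptor, Cd8a (body of 5.7 kb) and Cd8b1 (14.7 kb), both shorter than the median gene, had none.

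H3K9me3 is laid down by methyltransferases such as Setdb1 and the Suv39h enzymes and bound by HP1 proteins, and it is known from heterochromatin, silenced repeats and genes kept off in a lineage. Zeb2 and Zeb1 encode zinc finger and homeodomain transcription factors that bind E-box sequences and mostly repress their targets with the help of corepressors. In CD8+ T cells Zeb2 is known for its part in terminal effector differentiation downstream of T-bet, and Zeb1 for its part in memory cells. The microRNAs of the miR-200 family repress both. Arhgap15 encodes a GTPase-activating protein that switches off the small GTPase Rac in leukocytes. Gtdc1 encodes a protein with a glycosyltransferase-like domain, and Kynu encodes kynureninase, an enzyme of tryptophan breakdown.

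Start sites and strands for Arhgap15, Gtdc1 and Zeb2, 3 of the 5 genes, were matched in a RefSeq promoter table of GRCm38.p6 (mm10). The 250 bases before a start site are printed because the sites of these genes lay in or near a day 3 island, 1 site for each gene. They are written 5′ to 3′ on the strand of the gene, with any CAGGTG or CAGGTA, the E-boxes that ZEB proteins are known to bind, or their reverse complements CACCTG and TACCTG, in capitals. For Gtdc1 the start site with the CpG-rich promoter is shown, and another start site of the gene lay 0.284 kb from the same day 3 island.
Arhgap15, chr2:43748574-43748823, plus strand: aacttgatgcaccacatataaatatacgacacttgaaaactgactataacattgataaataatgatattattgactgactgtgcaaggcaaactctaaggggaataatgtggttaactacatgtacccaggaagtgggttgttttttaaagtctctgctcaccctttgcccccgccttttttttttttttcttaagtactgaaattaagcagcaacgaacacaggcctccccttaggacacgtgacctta
Gtdc1, chr2:44927237-44927486, minus strand: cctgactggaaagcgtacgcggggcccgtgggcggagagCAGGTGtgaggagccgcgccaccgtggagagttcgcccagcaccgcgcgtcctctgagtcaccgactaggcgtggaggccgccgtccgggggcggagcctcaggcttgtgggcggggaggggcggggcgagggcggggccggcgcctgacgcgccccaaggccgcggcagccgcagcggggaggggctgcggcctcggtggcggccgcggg
Zeb2, chr2:45117443-45117692, minus strand: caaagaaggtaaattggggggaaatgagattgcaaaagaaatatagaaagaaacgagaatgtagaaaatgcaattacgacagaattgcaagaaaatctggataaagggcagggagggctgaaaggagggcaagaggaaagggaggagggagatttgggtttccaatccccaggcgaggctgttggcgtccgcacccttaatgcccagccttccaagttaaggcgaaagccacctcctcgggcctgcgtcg

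The Arhgap15 sequence lay wholly inside a day 3 island (43748201 to 43753600, 256 reads, 47.4 reads per kb), and the start site itself was the only one of the 9 listed for these 3 genes to be inside an island on either day. On day 0 the nearest island was 33.6 kb away. Of 20085 start sites of autosomal protein-coding genes, 1.68% lay in a day 0 island and 2.35% in a day 3 island. The outermost Zeb2 start site was 0.359 kb from a day 3 island (45117801 to 45119800, 115 reads) that lay just upstream of the gene, and 4.76 kb from the nearest day 0 island. The innermost Zeb2 start site was 7.52 kb from an island on day 3 and 11.9 kb on day 0. For the CpG-rich Gtdc1 start site the distances were 0.765 kb on day 3 and 15.4 kb on day 0. The printed sequences hold 4 CpG dinucleotides for Arhgap15, 9 for Zeb2 and 35 for Gtdc1, against a median of 10 over all 20085 promoters of the same length. One of the searched E-boxes was found in the Gtdc1 sequence and none in those of Arhgap15 and Zeb2. Of all these promoters 24.1% hold at least 1.

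Islands in the chromosome 2 stretch had a median length of 5200 bp on day 0 and 4500 bp on day 3, and those of the whole lists 4800 and 3600 bp. From 43455258 to 45217442, a length of 1762 kb, islands covered 231.2 kb on day 0 and 570.0 kb on day 3, or 13.1% and 32.3%. The day 3 value was 2.47 times the day 0 value, while over all autosomes the lists differed 1.98-fold. In the intervals next to the stretch, up to the next protein-coding genes, the ratios were larger (3.32 and 3.47). When the autosomes were cut into 1386 tiles of the same length, none reached the coverage of the stretch on day 3 and 3 did on day 0. The most covered tile reached 30.9% on day 3. The stretch was chosen for its coverage in these same libraries, while the tiles lie on a fixed grid. A high rank was therefore built in, and it tests nothing. The median gap between neighbouring islands was 20.3 kb on day 0 and 6.60 kb on day 3, against 54 and 18.4 kb over the autosomes. The excess of day 3 was 339 kb. It was 195 kb when only those day 3 islands with the most reads were kept that together cover as much sequence as the day 0 list.

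**Figure D1:**
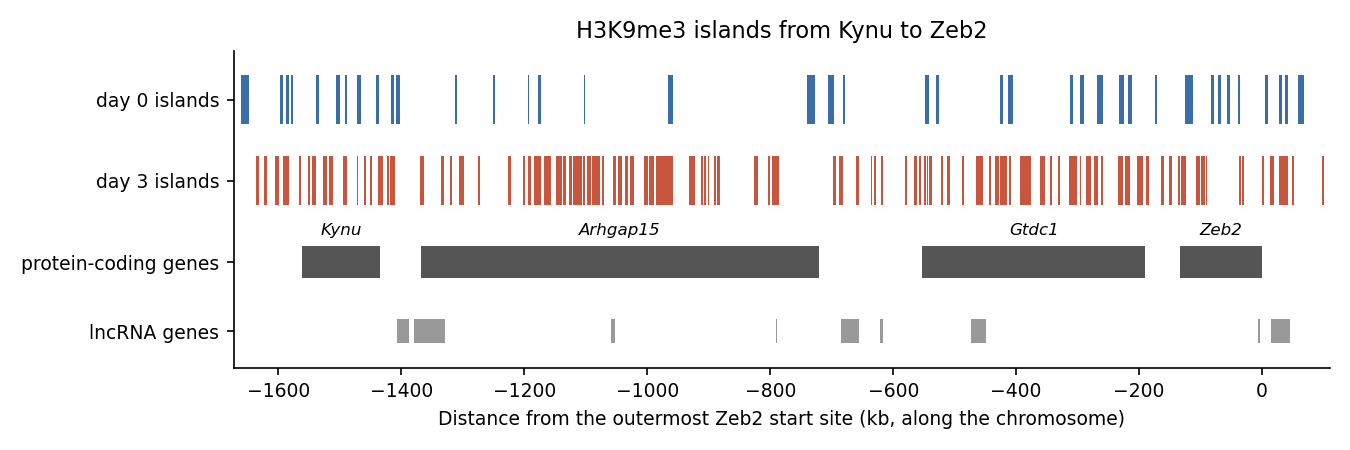
Islands along the chromosome 2 stretch, by distance in kb from the outermost Zeb2 start site; blue blocks are the 41 day 0 islands, red blocks the 110 day 3 islands, and dark and light grey blocks are protein-coding and lncRNA gene bodies. The densest run of day 3 islands lies in the middle of Arhgap15, where few day 0 islands are seen.

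Of the 5 gene windows (body with 100 kb on each side), 4 were covered over more sequence on day 3 and 1, Zeb1, over less. Neighbouring windows among the 4 on chromosome 2 overlap and share islands, so they are not 4 separate observations. Among all 20665 autosomal protein-coding genes, 48.6% were covered more on day 3 over such a window and 34.7% less. Among the 1573 genes whose bodies were as long as those described here (128 to 647 kb), the shares were 66.5% and 29.8%. Arhgap15 and Gtdc1 were covered at least 2 times as much on day 3 over the window, as were 19.2% of all genes and 34.1% of the long ones. With equal covered length of the 2 lists, an alternative chosen after seeing the data, the same 4 windows held more on day 3, as did 24.1% of all genes and 37.4% of the long ones.

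All 5 gene bodies carried an island on both days. An island on the body was present in 24.0% of all genes on day 0 and 28.7% on day 3, and in 80.0% and 83.0% of the long genes. Within 100 kb of the body the shares were 72.0% and 71.4% of all genes, and 91.8% and 92.8% of the long ones. All 5 bodies were covered over more sequence on day 3, as were 22.8% of all genes and 61.1% of the long ones, while 12.8% and 29.2% were covered over less. Arhgap15, Gtdc1 and Zeb1 were covered at least 2 times as much on day 3 over the body, as were 6.18% of all genes and 29.6% of the long ones. With equal covered length, 3 of the 5 bodies (Arhgap15, Gtdc1 and Kynu) held more on day 3, as did 12.1% of all genes and 35.2% of the long ones.

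Arhgap15 (chromosome 2, 43748798 to 44395953) held 37.2 kb of islands in its body on day 0, in 8 pieces, and 228 kb on day 3, in 41 pieces. The covered share was 5.75% on day 0 and 35.3% on day 3, a 6.13-fold difference. Of the long genes, 59.2% had a smaller covered share on day 0 and 95.2% on day 3. The excess of day 3, 191 kb, was larger than that of 99.9% of the long genes, and remained between 134 and 157 kb under the other choices of islands tried. Arhgap15, at 647 kb, is the longest of the long genes and so had the most room for an excess in kb. It was also chosen on this coverage, so a high rank was partly built in. The islands on the body held 1228 reads on day 0 (exact 95% Poisson interval 1160 to 1299) and 12616 on day 3 (interval 12397 to 12838). These counts are not scaled for depth, and all islands held 3402787 reads on day 0 and 10423178 on day 3. The intervals cover counting error only, so they are no test between the days.

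The day 3 islands were not spread evenly over Arhgap15. When the gene was cut from its start into 5 equal parts of 129 kb, the covered share on day 3 was 18.7%, 51.8%, 56.1%, 35.2% and 14.5% in order. On day 0 it was 6.34%, 5.56%, 2.32%, 5.72% and 8.81%. The middle part, least covered on day 0 by its single island, was thus the most covered on day 3, with 15 islands over 72.6 kb. The longest island of the whole stretch on day 3 (44142001 to 44158800) was 16.8 kb long, longer than 99.8% of its list, and held 925 reads. It enclosed the longest day 0 island of the gene (44151401 to 44158800, 231 reads) completely. A second long day 3 island (43996801 to 44010800, 14 kb, 845 reads) had no day 0 island beneath it. Near the end of the gene, by contrast, 2 day 0 islands between 44377201 and 44389800 lay in a gap of 88.2 kb (44331201 to 44419400) that had no day 3 island. That was the longest gap of the stretch on day 3. On day 0 the longest gap, 218 kb, also lay in Arhgap15 (44158801 to 44377200).

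**Figure D2:**
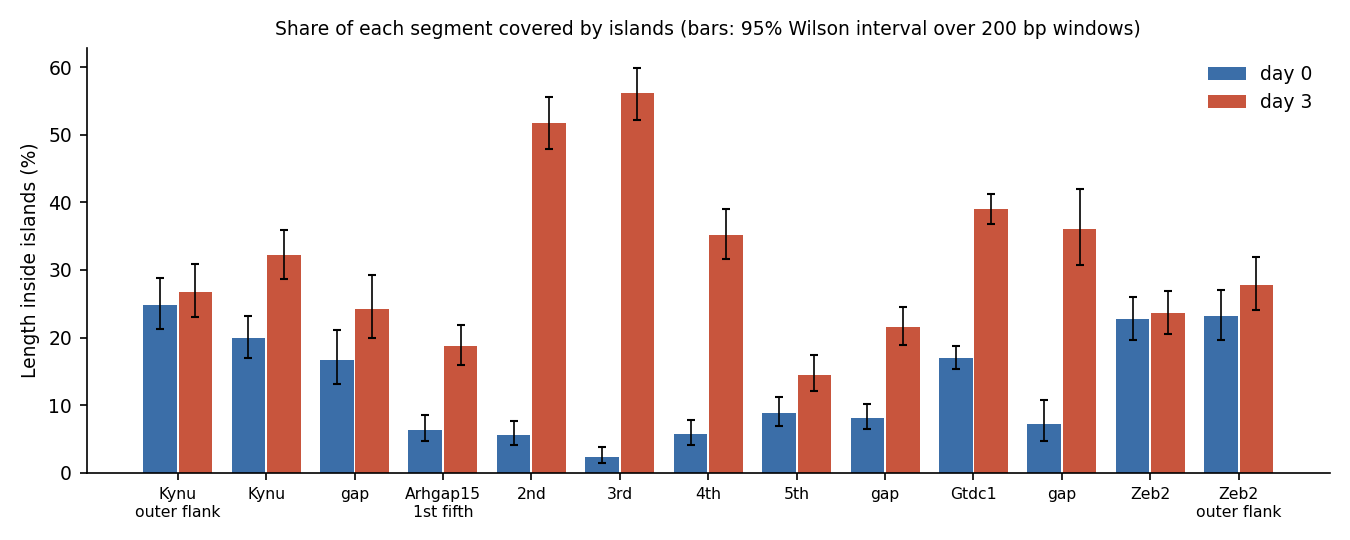
Percentage of each segment of the stretch that lay inside islands on day 0 (blue) and day 3 (red), in chromosome order with Arhgap15 in 5 equal parts; error bars are 95% Wilson intervals over 200 bp windows, which cover counting error only and are too narrow because neighbouring windows are joined. The bars of the days differ most in the middle of Arhgap15 (2.32% and 56.1%) and least over Zeb2 (22.7% and 23.7%).

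Gtdc1 (44564412 to 44927717) had 61.6 kb of its body in islands on day 0 (9 islands, 17.0%) and 142 kb on day 3 (26 islands, 39.0%). It was the gene with the highest covered share of the 5 on day 3, and among the long genes 96.2% had a smaller share that day and 93.4% on day 0. When the body was cut into 2 equal parts, the part near the start was covered over 20.1% on day 0 and 38.9% on day 3, and the part near the end over 13.8% and 39.2%. Its longest islands were 9.80 kb on day 0 (44849201 to 44859000, 322 reads) and 11.8 kb on day 3 (44651801 to 44663600, 613 reads). Of the 61.6 kb covered on day 0, 32.8 kb or 53.2% were covered on day 3 too, the highest such share among the gene bodies described.

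Kynu (43555258 to 43683048) had 25.4 kb of its body in islands on day 0 (5 islands, 19.9%) and 41.2 kb on day 3 (9 islands, 32.3%). Its day 0 share exceeded that of 96.8% of the long genes and its day 3 share that of 93.1%. Of its 5 day 0 islands, 4 overlapped a day 3 island, by 0.40 to 3.20 kb. With the flanks the window held 61.2 kb on day 0 and 90.0 kb on day 3. This excess of 28.8 kb was 13.8 kb with equal list lengths, meaning an equal number of islands, chosen by reads. It was 0.40 kb when both lists covered equal lengths of the genome. The excess over the body, 15.8 kb, was 3.85 kb under either choice. With islands of at least the median density of their list it was 23.6 kb.

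Zeb2 (44983512 to 45117442) had 30.4 kb of its body in 5 islands on day 0, or 22.7% (95% Wilson interval over 200 bp windows 19.7 to 26.0). On day 3 it had 31.7 kb in 8 islands, or 23.7% (interval 20.5 to 26.9). The difference was 1.29 kb. The intervals overlap, but they cover counting error only and treat joined windows as separate, so this is no test between the days. The sign of the difference depended on the islands counted. The body was covered over 10.9 kb less on day 3 when the lists were brought to an equal number of islands by reads. It was covered over 10.5 kb more when only islands of at least the median density of their list were kept. The window with 100 kb on each side held 73.8 kb on day 0, a share of 22.1% that exceeded the share of 99.8% of the long genes. On day 3 it held 105 kb (31.4%), more than in 97.6% of them. The excess of 31.0 kb on day 3 thus lay mostly outside the gene, with 16.1 kb in the 55.8 kb between Gtdc1 and Zeb2. Equal list lengths gave 16.8 kb and equal covered length gave 13.8 kb, while islands of at least the median density gave 40.4 kb.

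Although the covered lengths over Zeb2 were alike, the places were not. Only 3.40 kb of the body lay in islands on both days, which is 11.2% of the day 0 bases and 10.7% of the day 3 bases. The longest day 0 island (44992601 to 45004400, 11.8 kb, 352 reads), near the end of the gene, shared 1.80 kb with a day 3 island (44989401 to 44994400, 283 reads). A second pair near the start (45078001 to 45081600 with 133 reads on day 0, and 45080001 to 45083000 with 163 reads on day 3) shared 1.60 kb. The day 0 islands at 45034401, 45046201 and 45059601 had no counterpart, and day 3 instead had a gap of 52 kb there (45028001 to 45080000). When the body was cut into 2 equal parts, day 0 islands held 9.40 kb and day 3 islands 6.60 kb of the part near the start. The part near the end held 21 and 25.1 kb. The 4 annotated start sites were free of islands on both days, as was Zeb2os, an lncRNA gene near the start of Zeb2.

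The day 3 island from 45018001 to 45023800 (268 reads, 46.2 reads per kb) covered Mir5129, a microRNA gene inside Zeb2, over its whole length. The nearest day 0 islands ended at 45004400 and began at 45034401. Its mature products, from the RefSeq microRNA table of GRCm38.p6, are printed 5′ to 3′ with the seed, bases 2 to 8, in capitals.
mmu-miR-5129-5p: aUGUGGGGgcauugguauuuuc
mmu-miR-5129-3p: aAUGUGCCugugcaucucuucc

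For Zeb1 (chromosome 18, 5591327 to 5775468), the window held less on day 3, and this depended on the flank counted. With 100 kb on each side, 7 day 0 islands covered 44.8 kb (11.7%) and 10 day 3 islands covered 31.4 kb (8.17%). This difference of -13.4 kb (day 3 less day 0) was 0.80 kb with flanks of 50 kb and -3.80 kb with flanks of 200 kb, while equal list lengths gave -39.4 kb and islands of at least 4 kb gave -28.2 kb. The day 0 share exceeded that of 90.9% of the long genes and the day 3 share that of 52.8%. The body went the other way, with a single day 0 island of 10.4 kb and 7 day 3 islands of 24.6 kb in all. The difference lay in the flanks: on the side of lower coordinates 24.2 kb were covered on day 0 and 5.2 kb on day 3, and on the other side 10.2 and 1.60 kb. The 4 day 0 and 2 day 3 islands of the first flank all lay over the lncRNA gene Gm10125 (5491501 to 5592437). That gene spans nearly the whole flank and overlaps the edge of Zeb1, so any island there would be likely to lie over it. Over the Zeb1 body the excess of 14.2 kb on day 3 turned into a deficit of 5 kb with equal list lengths and of 2.40 kb with the density limit.

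The single day 0 island in Zeb1 (5688401 to 5698800, 355 reads) was 10.4 kb long, longer than 98.5% of its list, and enclosed a day 3 island of 2 kb (5690401 to 5692400, 122 reads). This was the only overlap between the days in the Zeb1 window, where 4.46% of the day 0 bases were covered on day 3 too. The corresponding share was 30.4% in the Zeb2 window and 21.2% over the whole lists. Day 3 islands covered 8.17% of the Zeb1 window and 31.4% of the Zeb2 window, so the shares start from unlike levels. Over the bodies the order was the other way, with 19.2% in Zeb1 and 11.2% in Zeb2. The ends of the Zeb1 body were free of islands on day 3 over 51.5 kb on the side of higher coordinates, and on day 0 over 97.1 and 76.7 kb on either side of its island.

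**Figure D3:**
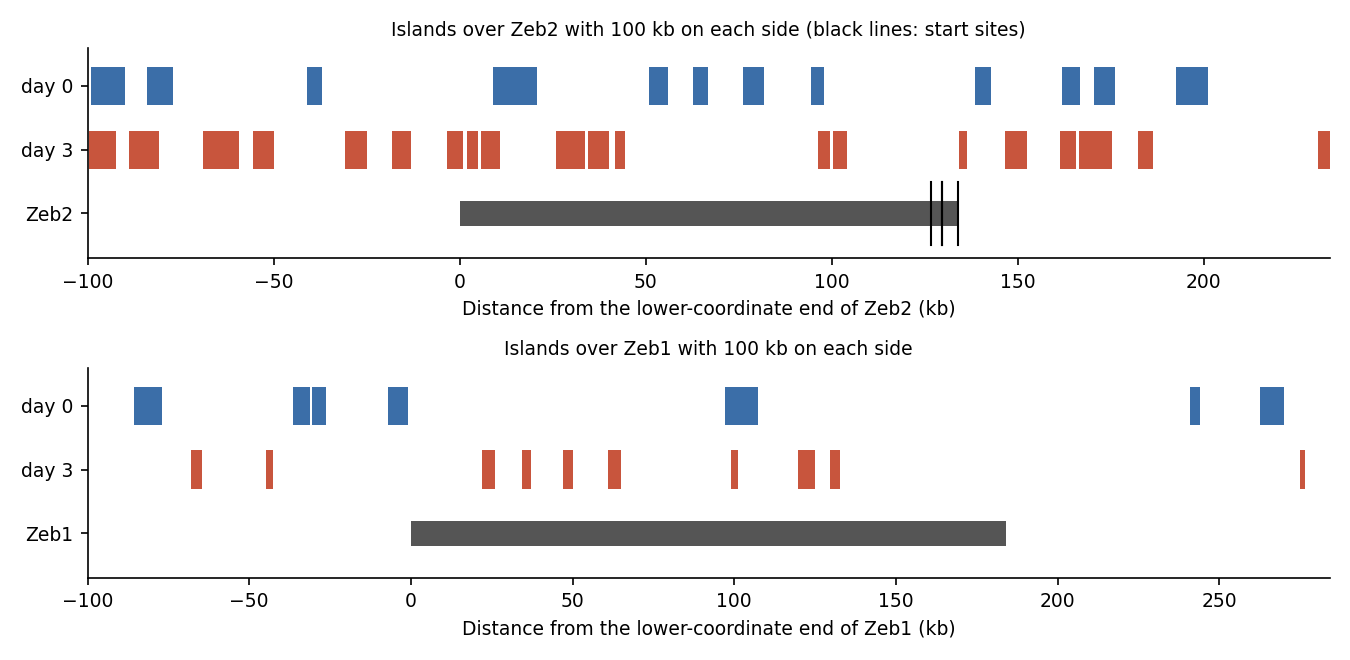
Day 0 (blue) and day 3 (red) islands over Zeb2 and Zeb1 with 100 kb on each side, by distance in kb from the lower-coordinate end of the gene (grey bar); black lines mark the Zeb2 start sites. Day 0 and day 3 islands mostly occupy different places in both genes, and no island crosses a Zeb2 start site.

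Among the other annotated genes of the stretch, several lncRNA genes carried islands on day 3 only. These were Gm39804 (10 kb), which overlaps the start of Arhgap15, Arhgap15os (2.92 kb) and Gm52508 (0.38 kb) inside it, Gm39806 (3.40 kb) between Arhgap15 and Gtdc1, and Gm39807 (11.8 kb) and Gm52509 (2.66 kb) inside Gtdc1. The pseudogene Gm13477, also inside Gtdc1, was touched on day 3 over 0.066 kb. Gm52509 was covered over its full length by the longest island of Gtdc1. Gm30374, between Kynu and Arhgap15, was the only gene of the stretch with coverage on day 0 alone (4.99 kb). Gm39805 (4.00 and 8.80 kb) and Gm28643, upstream of Zeb2 (10.4 and 16.6 kb), were covered on both days, and the pseudogene Gm13464 on neither. Islands over these genes also count for the protein-coding genes that enclose them.

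Day 0 islands of the chromosome 2 stretch overlapped a day 3 island, by at least 1 bp, in 23 of 41 cases, or 56.1% (95% Wilson interval 41 to 70.1), against 33.6% of all day 0 islands. In the other direction 25 of 110 day 3 islands overlapped a day 0 island (22.7%, interval 15.9 to 31.4), against 14.9% of all. When at least 50% of the island had to be overlapped, the shares were 36.6% and 15.5%, against 22.0% and 10.2% of all. The intervals treat neighbouring islands as separate, and the stretch was chosen on its coverage. They are therefore no test against the shares of all islands. The stretch is more densely covered than the genome on both days, and the part of this in the overlap was not tested. Counted in bases, 81.2 kb were covered on both days. That is 35.1% of the day 0 bases, close to the 32.3% of the whole stretch that day 3 islands covered. For the gene bodies, the share of day 0 bases inside day 3 islands and the day 3 coverage of the whole body were 33.9% and 32.3% in Kynu, 44.1% and 35.3% in Arhgap15, 53.2% and 39.0% in Gtdc1, 11.2% and 23.7% in Zeb2, and 19.2% and 13.4% in Zeb1. Over 35 bins of 50 kb, the covered lengths of the 2 days had a Pearson's r of -0.029 and a Spearman's rho of 0.033, given as a description of neighbouring bins from the same 2 libraries. Day 3 covered more in 28 of these bins and day 0 in 7. Over the autosomes, day 3 covered more in 1084 of the 1386 tiles of the length of the stretch, which are longer than these bins.

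Read density in the stretch lay near the level of each list. Its day 0 islands averaged 33.5 reads per kb and its day 3 islands 54.8, and the medians of the lists were 34.1 and 52.9. In 26 overlapping pairs of islands the day 3 density was 1.3 to 2.04 times that of day 0, with a median of 1.54. Over all 7306 overlapping pairs in the lists the median was 1.57. Divided by the list medians, the median ratio was 0.993 in the stretch. On day 3, 76 of the 110 islands were denser than the median of their list, and on day 0, 19 of 41 were. In the Zeb2 body, 3 of the 5 day 0 islands were among the thinner ones of the list, and those at 45059601, 45034401 and 44992601 were denser than 1.37%, 4.45% and 8.31% of day 0 islands. The island at 45046201 was denser than 90.7%. The day 3 islands with the highest density in the stretch were short: 1.40 kb at 44216201 in Arhgap15 (77.1 reads per kb) and 1.80 kb at 44481401 between Arhgap15 and Gtdc1 (74.4).

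**Figure D4:**
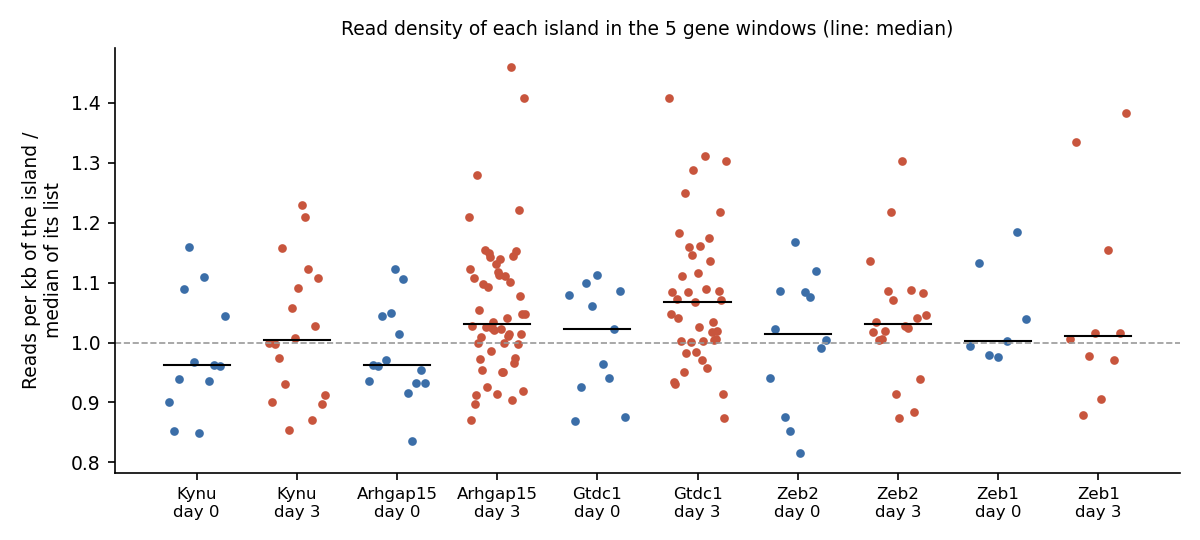
Reads per kb of every island in the 5 gene windows, divided by the median of its own list, for day 0 (blue) and day 3 (red); each point is 1 island, the black line is the median of the column and the dashed line is the list median. The column medians lie between 0.962 and 1.07; neighbouring windows on chromosome 2 share some islands.

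**Figure D5:**
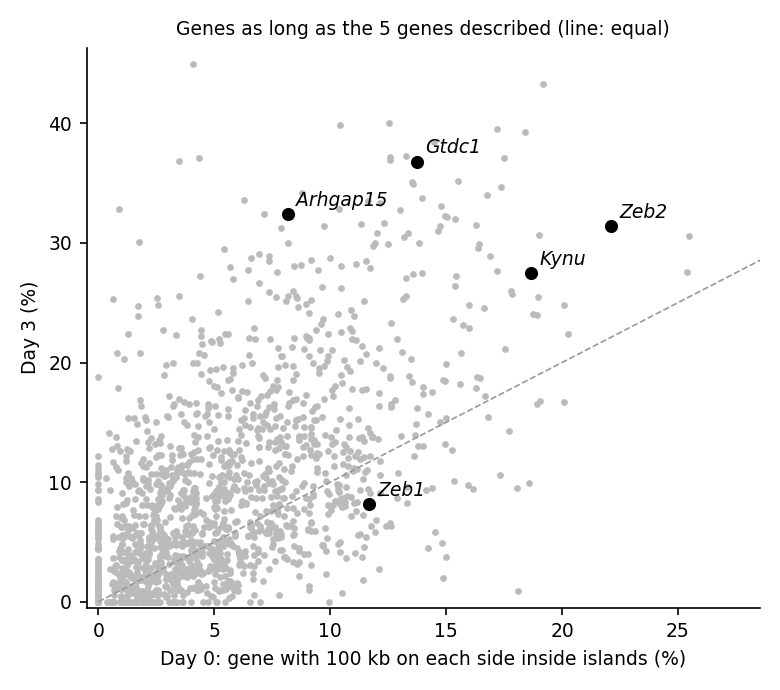
Percentage of each gene with 100 kb on each side that lay inside islands on day 0 (x axis) and day 3 (y axis) for the 1573 autosomal protein-coding genes with bodies of 128 to 647 kb; black points are the genes described and the dashed line marks equal values. Zeb2 lies far to the right (22.1%), Gtdc1 high (36.8%), and Zeb1, with flanks of 100 kb, below the line (11.7% and 8.17%).

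The plot of long genes places the 5 windows against a median of 4.73% on day 0 and 7.48% on day 3. By likeness of the covered share of the body on the 2 days (Euclidean distance in percentage points, genes of 0.5 to 2 times the length, more than 1 Mb away), the genes close to Zeb2 included Cep83 (23.4% and 24.0%), a centrosomal protein gene, and Ctnna1, the gene of alpha-catenin (21.9% and 24.0%), among 2883 candidates. Arhgap15 was nearest to Adk (7.37% and 35.5%), which encodes adenosine kinase, then Rsrc1 and the transcriptional repressor gene Zbtb20 (8.38% and 34.1%), among 451. Gtdc1 was nearest to Rasal2 (16.5% and 39.2%), a Ras GTPase-activating protein gene, then Cog5 and Gmds, among 940. Kynu was nearest to Ift74 (19.8% and 32.7%), then Stxbp5 and Nek1, among 3006, and Zeb1 to Spag17 (5.58% and 13.2%), then Trim9 and Tbc1d4, among 2110. The distance was at most 2.88 percentage points, for Zbtb20.

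Genes that work with the 5 were counted in lists chosen for function and read against the shares of all genes with an island, 24.0% on day 0 and 28.7% on day 3. The median covered length over all genes was 0 kb on both days, and it was 0 kb on both days in each list below except those of Rac signalling and the RhoGAP family. In the network around Zeb2 in effector T cells, islands lay on 2 of 17 genes on day 0 and on 4 on day 3. Apart from Zeb1 itself, these were Prdm1, the gene of the repressor Blimp-1 (8.40 kb on day 0 and 11 kb on day 3), Il7r, the interleukin-7 receptor gene (none and 10.3 kb), and Il2, the interleukin-2 gene (none and 5.24 kb). None of the 5 genes of the miR-200 family, which target ZEB transcripts, had an island on either day. Their median body is 0.072 kb, against 17.5 kb over all genes, so the shares of all genes are no measure for them. In TGF-beta and Smad signalling, whose Smad proteins bind Zeb2, 3 and 5 of 12 genes had an island. The receptor gene Tgfbr1 was covered over 9.60 and 17 kb and the signal transducer gene Smad2 over 16.8 kb on day 3 only. Skil, a Smad corepressor gene, was covered over 4.6 kb on day 0 only and Smad1 over 3.41 kb on day 3 only.

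Among the ZEB corepressors and the NuRD complex, 4 and 3 of 17 genes had an island. The corepressor gene Ctbp2 (6.80 kb), the methyl-DNA binding protein gene Mbd2 (6.20 kb) and the acetyltransferase gene Kat2b (4.20 kb) had one on day 0 only, and the acetyltransferase gene Ep300 on both days (9.40 and 7.60 kb). Among factors and targets of epithelial-mesenchymal transition, where ZEB proteins repress E-cadherin, 2 and 4 of 12 had an island. Those of the cadherin genes Cdh1 (7.80 kb) and Cdh2 (9.20 kb) and of the splicing regulator gene Esrp1 (8.20 kb) were on day 3 only, and that of Twist2 (7.40 kb) on day 0 only. For the kynurenine pathway of Kynu, 2 and 4 of 13 genes had an island. Acmsd, which encodes a decarboxylase of the pathway, was covered over 10 and 6.59 kb, Kyat3, a kynurenine aminotransferase gene, over 8.18 kb on day 0 only, and Kmo, the kynurenine hydroxylase gene, over 5.21 kb and the receptor gene Ahr over 7.82 kb on day 3 only.

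Around Arhgap15 more genes carried islands, and they were long. In Rac signalling islands lay on 7 of 13 genes on day 0 and on 9 on day 3, with a median covered length of 3.6 and 4.2 kb and a median body of 63.1 kb, against 17.5 kb over all genes. The exchange factor genes Vav3 (29.8 and 79 kb) and Dock2 (12.8 and 32.8 kb), the Dock partner gene Elmo1 (16.2 and 44.8 kb) and the Rac effector gene Pak1 (5.80 and 17.2 kb) held the most islands by length. Over the list, 7 genes were covered more on day 3 and 2 less, the exchange factor genes Tiam1 (9 and 4.2 kb) and Dock8 (6 and 3.2 kb), which were named after their values were seen. Of 32 other genes of the RhoGAP family 13 carried islands on day 0 and 17 on day 3, with medians of 0 and 2 kb and a median body of 92.5 kb, and 14 were covered more on day 3 and 6 less. Arhgap32 was covered over 27.0 and 73 kb, Arhgap5 over 18.2 and 55.8 kb (81.8% of its body on day 3), and Arhgap29 over 8.40 and 32.4 kb. Arhgap26, with 775 kb the longest of these genes, was covered over 41.6 and 40.4 kb, or 5.37% and 5.22%. The 228 kb of Arhgap15 on day 3 were the most in the family as listed, while its share of 35.3% stood below those of Arhgap5 (81.8%) and Arhgap29 (51.0%).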

How the data were processed

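H3K9me3 native ChIP-seq was available for 2 libraries, 1 per day. The authors deposited a list of islands for each, with 1 whole number per island, taken here for a raw read count, since the values are whole numbers that grow with the length of the island (Pearson's r of 0.950 on day 0 and 0.966 on day 3, across islands). Bowtie2, SICER 1.1 and the build mm10 are named per the submitters' processing notes. The sources used here do not state the threshold, the gap size, the treatment of duplicates, the use of the input or the number of mapped reads. The depth of each library is therefore known only as the reads inside islands.

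Islands were converted to 1-based coordinates, and covered bases, overlaps (at least 1 bp) and reads per kb were computed in Python 3.11.15 with scipy 1.17.1. The functions were tested on simulated data. Gene bodies came from a RefSeq table of GRCm38.p6 without exons, so exon and intron are not told apart. Named genes were the 5 genes, annotated genes in their windows, up to 4 genes per list with the most covered bases over both days, and the 3 most alike genes per gene, of which 1 is not reported here. The genes and lists were chosen with earlier results of these data known. Wilson and exact Poisson intervals (95%) describe counting error alone. The Poisson intervals may be too narrow even for that, since PCR copies of a read are not separate molecules. The Wilson intervals over 200 bp windows are too narrow, since neighbouring windows are joined. No test was made, since each day has 1 library. Alternatives were other selections of islands, other flanks and a stricter overlap.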

Additional observations from a re-analysis of the deposited data

How the results depend on the processing

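No paired analysis was possible because each day has 1 library. Of 54 values recomputed for 9 results, 14 stayed within the counting error or the spread of the main value, 38 moved and 2 reversed. The interval used for covered lengths is too narrow, since neighbouring windows are joined, and depth outside islands is unknown. Differences are day 3 less day 0 in kb. For equal list length the day 3 list was cut by reads to 19989 islands, the number on day 0. It then covered 118 Mb, against 100.5 Mb on day 0. The differences were 16.8 for the Zeb2 window, 150 for Arhgap15, 91.4 for Gtdc1, 13.8 for Kynu, -39.4 for Zeb1 and 235 for the whole stretch. With islands of at least the median density they were 40.4 for Zeb2, 160 for Arhgap15, 108 for Gtdc1, 26.2 for Kynu, -10.8 for Zeb1 and 275 for the stretch. With islands of at least 4 kb they were 17.4 for Zeb2, 153 for Arhgap15, 87.6 for Gtdc1, 17.4 for Kynu, -28.2 for Zeb1 and 238 for the stretch. With equal covered length, an alternative chosen after seeing the data, they were 13.8 for Zeb2, 130 for Arhgap15 (129.6), 87.4 for Gtdc1, 0.40 for Kynu, -39.4 for Zeb1 and 195 for the stretch. Under that choice 24.1% of all genes and 37.4% of the long genes were covered more on day 3 over their windows. With the gene body alone the differences were 1.29 for Zeb2, 191 for Arhgap15, 80.2 for Gtdc1, 15.8 for Kynu and, with the sign turned, 14.2 for Zeb1. With flanks of 50 kb they were 19.5 for Zeb2, 185 for Arhgap15, 106 for Gtdc1 (105.6) and 0.80, again turned, for Zeb1. With flanks of 200 kb they were 49.2 for Zeb2, 238 for Arhgap15, 107 for Gtdc1 (106.8), 68 for Kynu, -3.80 for Zeb1 and 372 for the stretch. These flank values differ by construction, since a different length is counted. The Zeb1 body alone gave -5.00 with equal list length and with equal covered length, and -2.40 with the density limit; the cause was not tested. The share of overlapped islands in the stretch moved to 36.6% (day 0) and 15.5% (day 3) when 50% of the island was required, and to 11.7% of day 3 islands with the density limit. Dividing densities by the list medians moved the ratio from 1.54 to 0.993, by construction.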

Other observations

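Beyond the stretch, the intervals up to the next protein-coding genes were less densely covered than it on both days. Both were more covered than the autosomes as a whole (4.08% on day 0 and 8.07% on day 3). The day 3 value was 3.32 times the day 0 value on the Zeb2 side and 3.47 times on the Kynu side. In the stretch it was 2.47 times, so neither high day 3 coverage nor the larger ratio is particular to the stretch. The 3697 kb between Zeb2 and Acvr2a, an activin receptor gene, were covered over 6.32% on day 0 (45 islands) and 21.0% on day 3 (181 islands). In the 100 kb next to Zeb2, which are part of that interval, the shares were 23.2% and 27.8%. The 902 kb between Lrp1b and Kynu, which include the 100 kb flank of Kynu, were covered over 7.45% on day 0 (12 islands) and 25.9% on day 3 (54 islands), and that flank alone over 24.8% and 26.8%.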
